A study of Mus musculus with 27 samples.

Results

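The genes of AMP-activated protein kinase (AMPK) and of its main upstream kinase LKB1 were followed in mouse tibialis anterior muscle after volumetric muscle loss (VML). They are the 8 genes whose symbols in the expression table are Prkaa1, Prkaa2, Prkab1, Prkab2, Prkag1, Prkag2, Prkag3 and Stk11, of 54532 genes in the table. Polyadenylated RNA was sequenced in 27 samples from 8-week-old male C57BL/6 mice. The uninjured group had 5 samples, and the groups at day 3, 7, 14 and 21 after excision of 40% of the tibialis anterior had 5, 6, 6 and 5 samples. No other treatment or genotype separates the groups. The label text calls the excision unilateral and the study's methods call it bilateral, so the state of the opposite leg is unclear. Nothing in the labels says that each sample came from its own mouse, so each p-value measures the spread between samples, which may be partly technical.

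AMPK is the energy sensor of the cell. A catalytic alpha subunit (Prkaa1 or Prkaa2) is bound through a beta subunit (Prkab1 or Prkab2), which also carries a glycogen-binding module, to a gamma subunit (Prkag1, Prkag2 or Prkag3) that binds AMP, ADP and ATP. LKB1, encoded by Stk11, phosphorylates the activation loop of the alpha subunit. Skeletal muscle is known for complexes built of the products of Prkaa2, Prkab2 and, in fast glycolytic fibres, Prkag3. The products of Prkaa1, Prkab1 and Prkag1 are found in most cell types.

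At day 3 the transcripts of the muscle-type subunits Prkaa2 and Prkab2 stood at 39.6% and 34.8% of their uninjured means, while those of the widely expressed partners Prkaa1 and Prkab1 stood at 139% and 134%. Prkag1, also widely expressed, stood at 79.1% and was not called in the fit used here. Prkag3 took a different course: it was at 60.3% of the uninjured mean at day 3, at 106% at day 7 and at 174% at day 14. Stk11 was at 66.1% at day 3. When FPKM was rescaled to a common sum (TPM), the median of all tested genes moved up by 0.51 on the log2 scale at day 3. Relative to that median the day 3 log2 changes of Prkaa2, Prkab2, Prkag3 and Stk11 were -1.02, -1.21, -0.46 and -0.27. This correction removes only part of the shift for genes well above 1 FPKM. Before it the values of Prkag3 and Stk11 were 0.05 and 0.24, and none of the 4 was called lower with TPM. By day 21 none of the 8 genes differed from uninjured muscle at an adjusted p under 0.05 in the fit used here, although Prkag3 stood at 188% of its uninjured mean and was called in some of the other fits, and quality weights called 3 of the 8. The ratios of Prkaa2 to Prkaa1 and of Prkag3 to Prkag1 passed at that day (adjusted p = 0.0476 each, exact permutation test), though in 9 of 10 cases not when 1 sample was left out. These are bulk samples, in which fewer cells of a type and less RNA per cell cannot be told apart.

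Levels are given as deposited, in FPKM, read fragments scaled to the length of the gene and to the size of the library. All values could be turned back into whole reads, and the samples held between 14376395 and 24436763 reads assigned to genes (median 17398586). The 8 genes had at least 106 reads (Prkag2) in each sample. Changes are given as log2 fold changes of FPKM + 1, which understate the change of low genes. The test was limma on all 27 samples and on the 14630 genes with at least 0.5 FPKM in at least 5 samples, all 8 genes included, with Benjamini-Hochberg adjustment over the tested genes of each comparison and calls at an adjusted p under 0.05.

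The scale matters here. Each sample's FPKM carried a denominator that differed from its own total of reads, on average by a factor of 0.782 in uninjured muscle and of 1.25, 1.18, 1.04 and 0.897 on day 3, 7, 14 and 21. The deposited values were thus already set so that the typical gene kept its level: the median log2 fold change of all tested genes was 0.01 at day 3 and 0.03 at day 7. With each sample's own total as denominator that median was 0.40, 0.36, 0.25 and 0.12 on day 3, 7, 14 and 21, and on a TPM scale, where the FPKM of each sample add up to the same sum, it was 0.51, 0.48, 0.29 and 0.12. A change on those scales holds this shift of the whole table. Values said to be relative to all genes have the median taken off. The added 1 FPKM shrinks the shift in low genes, so the median understates it for genes well above 1 FPKM. At day 3, for example, Stk11 went from -0.56 to 0.24 with TPM, a larger step than 0.51. Values relative to all genes thus still hold part of the shift in such genes. Ratios of 2 genes within a sample do not depend on this choice.

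Some samples stood apart from their group in the markers of cell types. The summed FPKM of 6 myeloid markers was 307 in day 3 replicate 5, against 989 to 2128 in the other 4 day 3 samples. It was 1990 in day 7 replicate 5, against 42.8 to 406 in the other 5 day 7 samples. Each of these 2 samples thus lay within the range of the others of the opposite day in this sum. The closest pair of samples was day 3 replicate 3 and day 7 replicate 5 (Pearson correlation 0.990 over 15704 genes). The reason was not tested. The summed FPKM of 8 myofibre markers in day 7 replicates 3 and 6 was 99575 and 90875, within or above the uninjured range of 83380 to 98904, while the other 4 day 7 samples held 26899 to 56754. Day 7 replicate 6 also held a sum of 714 for 2 Schwann cell markers, against 1.31 to 80.9 in the other day 7 samples. For the 8 genes the day 3 changes are given without day 3 replicate 5 as well, and those of day 7 without day 7 replicates 3, 5 and 6 where they were called or where one of these samples turned them or made them pass.

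The coordinates of all 8 genes are those of the GRCm38 build, the same in the table and in the annotation used here. Prkaa1 (ENSMUSG00000050697) spans chr15:5143861-5181899 on the plus strand and Prkaa2 (ENSMUSG00000028518) chr4:105029874-105109890 on the minus strand. Prkab1 (ENSMUSG00000029513) spans chr5:116013586-116024508 on the minus strand and Prkab2 (ENSMUSG00000038205) chr3:97658193-97673812 on the plus strand. Prkag1 (ENSMUSG00000067713), Prkag2 (ENSMUSG00000028944) and Prkag3 (ENSMUSG00000006542) lie on the minus strand at chr15:98812797-98831521, chr5:24862744-25100642 and chr1:74738922-74749221. Stk11 (ENSMUSG00000003068) spans chr10:80115803-80130682 on the plus strand. The library did not keep the strand, so reads of an overlapping gene on the other strand cannot be told apart, but those neighbours held few reads: at most a mean of 34.7 per sample (Cbarp, beside 2357 for Stk11).

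The promoters of the 3 muscle-type subunit genes are shown because their transcripts changed most on the deposited scale. Prkaa2 and Prkab2 went down there and Prkag3 later up. With TPM the day 3 log2 changes of Prkaa1 and Prkab1, 1.01 and 1.05, were larger in size than those of Prkaa2 and Prkab2, -0.51 and -0.70. Relative to all genes they were smaller, at 0.50 and 0.54 against -1.02 and -1.21, values that still hold part of the shift. On the deposited scale they were smaller too, at 0.36 and 0.35 against -1.26 and -1.49. Each stretch is from RefSeq on GRCm38.p6, read 5′ to 3′ on the strand of its gene, with 250 bases before and 50 bases from the start of transcription. Capitals mark the GC box (GGGCGG on either strand), the site of Sp1-type factors, or the E-box CAGCTG, a site of myogenic bHLH factors.
Prkaa2, chr4:105109849-105110148, minus strand: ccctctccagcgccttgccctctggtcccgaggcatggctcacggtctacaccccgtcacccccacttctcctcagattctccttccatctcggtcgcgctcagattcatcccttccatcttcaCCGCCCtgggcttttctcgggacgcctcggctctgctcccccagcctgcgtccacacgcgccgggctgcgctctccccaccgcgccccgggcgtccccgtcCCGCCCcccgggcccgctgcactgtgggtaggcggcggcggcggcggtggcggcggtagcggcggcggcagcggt
Prkab2, chr3:97657962-97658261, plus strand: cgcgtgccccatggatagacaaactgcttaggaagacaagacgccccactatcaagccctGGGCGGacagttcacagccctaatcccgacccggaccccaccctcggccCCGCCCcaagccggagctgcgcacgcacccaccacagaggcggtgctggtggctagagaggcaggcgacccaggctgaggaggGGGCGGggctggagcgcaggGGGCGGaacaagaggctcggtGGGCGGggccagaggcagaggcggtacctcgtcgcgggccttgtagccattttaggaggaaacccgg
Prkag3, chr1:74748906-74749205, minus strand: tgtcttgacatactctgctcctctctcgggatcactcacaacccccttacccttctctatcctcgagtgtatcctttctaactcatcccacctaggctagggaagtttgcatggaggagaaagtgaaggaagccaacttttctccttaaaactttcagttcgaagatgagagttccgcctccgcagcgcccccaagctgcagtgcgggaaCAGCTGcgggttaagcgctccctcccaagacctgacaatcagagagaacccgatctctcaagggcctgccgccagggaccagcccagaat

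The Prkaa2 window holds 2 GC boxes and the Prkab2 window 5, at GC contents of 72.7% and 68.0%. The Prkag3 window holds no GC box and 1 E-box, at a GC content of 54.0%. Of the other genes, Prkaa1 had 5 GC boxes, Prkag1 2, Stk11 1 and Prkab1 0, and the 3 windows of Prkag2 had 2, 0 and 1. Of 32851 promoter windows of this length, 35.7% held a GC box and 16.3% the E-box CAGCTG, and the median GC content was 52.7%. The windows of all 8 genes were searched on both strands, with 3 windows for Prkag2, and Prkag3 was the only one with CAGCTG. None held TATAAA (13.6% of all windows), TGACGTCA (1.79%) or a MEF2 site (0.557%). These matches describe letters only.

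**Figure D1:**
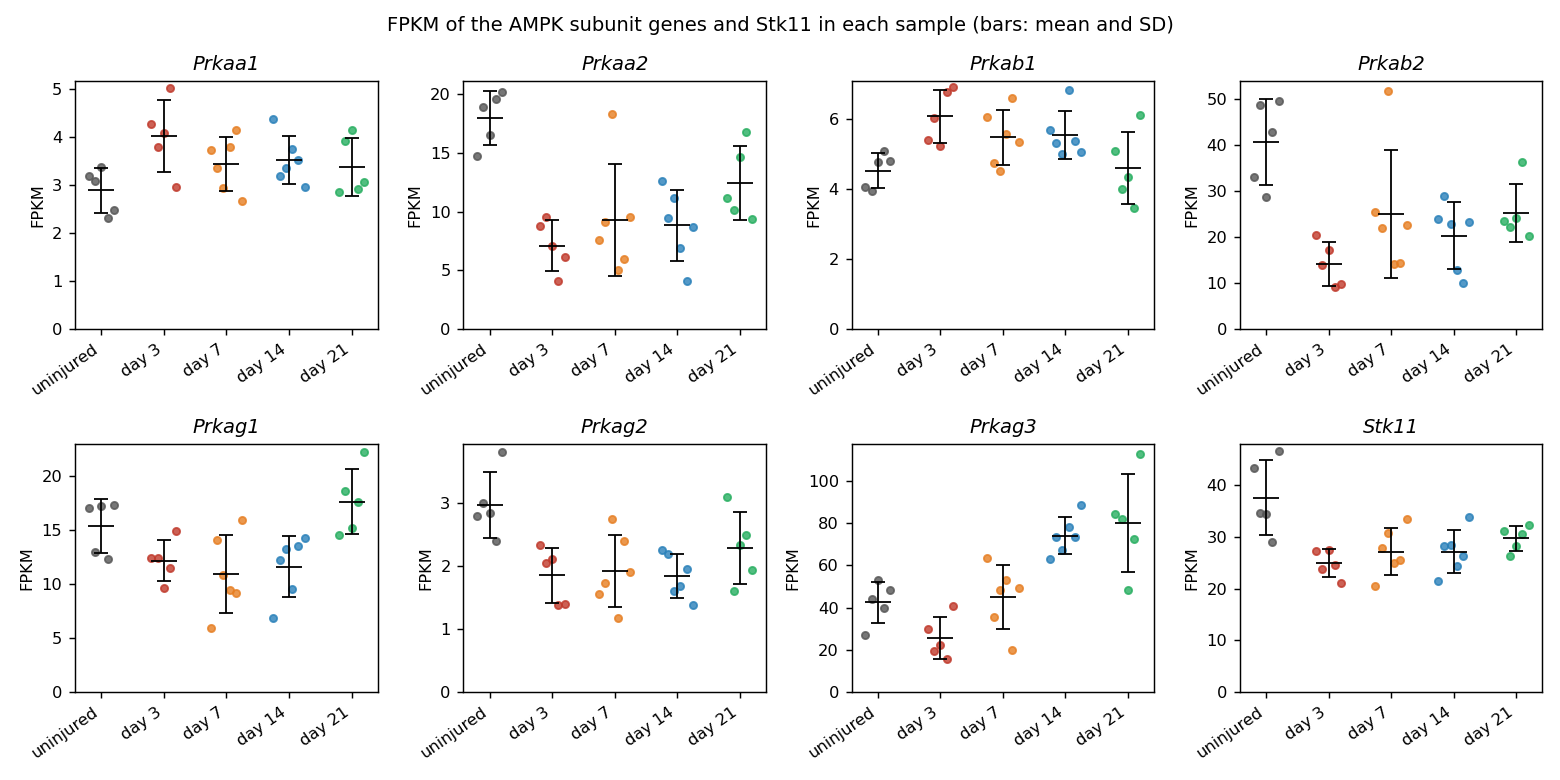
FPKM (y axis, linear, from 0) of each of the 8 genes in the 27 samples, by group, with 1 point per sample and bars for the mean and SD. The day 3 points of Prkaa2 and Prkab2 all lie below the uninjured points, and the 6 day 14 points of Prkag3 all lie above them.

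In uninjured muscle Prkag3, Prkab2 and Stk11 had the highest levels, at 42.5 ± 9.81, 40.5 ± 9.35 and 37.7 ± 7.23 FPKM (SD, n = 5), and their ranges overlapped. Prkaa2 followed at 17.98 ± 2.32 and Prkag1 at 15.4 ± 2.52 FPKM, also with overlapping ranges. Prkab1 stood at 4.52 ± 0.509, Prkag2 at 2.97 ± 0.524 and Prkaa1 at 2.89 ± 0.467 FPKM, and the last 2 could not be ordered beyond their spread.

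Of the 8 genes, 2 were called higher and 5 lower at day 3 than in uninjured muscle, where 23.4% and 19.8% of all tested genes were called higher and lower. At day 7, 0 were higher and 4 lower (all tested genes 15% and 14.4%). At day 14, 1 was higher and 4 lower (9.02% and 11.3%), and at day 21 limma called 0 in either direction (1.74% and 1.69%), with 3 of the 8 genes at an unadjusted p under 0.05 and 0 called by voom weights on the recovered reads. Single samples moved these counts: without day 3 replicate 4 the day 3 count of 7 became 4, the day 7 count of 4 became 2 without day 7 replicate 4 and 1 without uninjured replicate 5, and the day 14 count of 5 became 3 without uninjured replicate 1 or 5. Without both day 3 replicate 5 and day 7 replicate 5 the counts of higher and lower genes were 2 and 5 at day 3, 0 and 3 at day 7, 1 and 4 at day 14 and 1 and 0 at day 21. The median log2 fold change of the 8 genes was -0.52, -0.45, -0.42 and -0.14 on day 3, 7, 14 and 21, beside 0.01, 0.03, 0.02 and 0.01 for all tested genes. These shares depend on the scale: with TPM, 3 genes were called higher and 0 lower at day 3, 3 and 0 at day 7 and 1 and 0 at day 14, and with each sample's own total 2 and 2, 2 and 0, and 2 and 0. The lower calls were thus lost on both scales, apart from Prkaa2 and Prkab2 at day 3 with own totals. No gene called lower on the deposited scale was called higher at that day on either of them. The whole table moved with the scale, from 3417 higher and 2899 lower at day 3 to 6868 and 322 with TPM, 6534 and 618 with own totals and 2774 and 3734 with quantile normalization. At day 7 the split went from 2189 and 2107 to 6304 and 209 or 5348 and 424, at day 14 from 1320 and 1649 to 1678 and 107 or 2275 and 288, and at day 21 from 255 and 247 to 42 and 7 or 106 and 27.

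**Figure D2:**
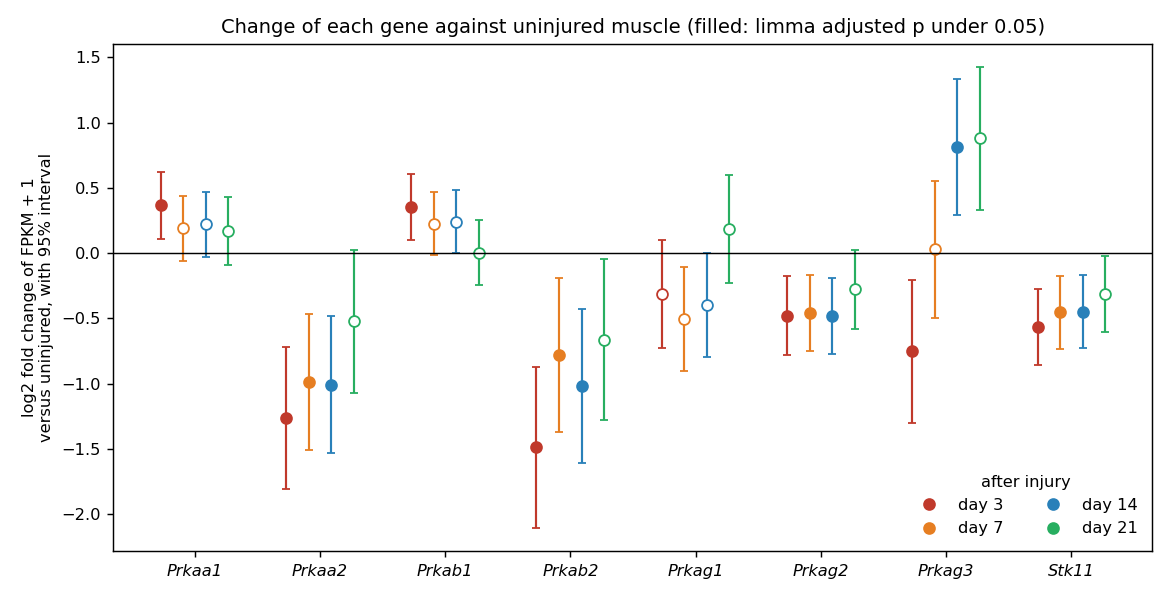
Log2 fold change of FPKM + 1 against uninjured muscle (y axis) for each gene at the 4 days, with 95% intervals from limma. Filled points have an adjusted p under 0.05, and no point at day 21 is filled. The values are on the deposited scale: with FPKM rescaled to a common sum the day 3 values of Prkag1, Prkag2, Prkag3 and Stk11 lie above 0.

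Prkaa2 encodes the alpha2 catalytic subunit, the main alpha isoform of muscle fibres. Its FPKM was 14.7, 18.9, 16.5, 19.6 and 20.2 in the 5 uninjured samples. At day 3 it was 8.76, 9.54, 7.04, 4.09 and 6.15, so that every day 3 sample lay below every uninjured one. Its log2 fold change at day 3 was -1.26 (SE 0.27, adjusted p = 0.000488, limma), and -1.23 without day 3 replicate 5.

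At day 7 the Prkaa2 values ran from 5.02 over a median of 8.36 to 18.3, and 5 of 6 samples lay below the uninjured range. The exception was day 7 replicate 3, one of the 2 with an uninjured-like sum of myofibre markers, whereas the other, replicate 6, stood at 9.56 FPKM. The change on the log2 scale was -0.99 (SE 0.25, adjusted p = 0.00575, limma), -1.19 without that sample, -0.90 without day 7 replicate 5 and -1.02 without replicate 6. It was -0.32 with TPM (adjusted p = 0.354) and -0.48 with own totals (adjusted p = 0.114), so the call was lost on both, and relative to all genes it was -0.80 and -0.84. At day 14 the values ran from 4.10 over 9.09 to 12.6, all 6 below the uninjured range, with a log2 fold change of -1.01 (SE 0.25, adjusted p = 0.00764, limma). This call too was lost with TPM (-0.56, adjusted p = 0.181) and own totals (-0.63, adjusted p = 0.0712), where the change relative to all genes was -0.85 and -0.88. At day 21 they were 11.2, 10.2, 14.6, 16.8 and 9.33. These values sat between the day 3 and the uninjured groups: 4 of 5 were above all day 3 samples and 4 of 5 below all uninjured ones. The difference of day 21 from day 3 was 0.74 (adjusted p = 0.0420, limma) and that from uninjured muscle -0.52 (SE 0.27, adjusted p = 0.275, limma). The rise from day 3 to day 21 lost its call without any 1 of day 3 replicates 3, 4 and 5 or day 21 replicates 1, 3 and 4 (adjusted p from 0.0571 to 0.148), with no filter (adjusted p = 0.0851), with the letter of the sample descriptions as a block (adjusted p = 0.0713), and with TPM (0.18, or 0.59 relative to all genes) and own totals (0.32, or 0.63). Relative to the median of all genes, the change of Prkaa2 at day 3 was -1.02 with TPM and -1.06 with own totals, and before that correction it was -0.51 (adjusted p = 0.157, limma) and -0.66 (adjusted p = 0.0355, limma).

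Prkaa1 encodes the alpha1 catalytic subunit, found in most cells. Its FPKM was 3.19, 3.08, 3.37, 2.30 and 2.48 in uninjured muscle and 4.26, 3.78, 4.09, 5.03 and 2.95 at day 3. All day 3 samples but replicate 5 exceeded the uninjured range. This was a log2 fold change of 0.36 (SE 0.13, adjusted p = 0.0213, limma), and 0.45 without day 3 replicate 5. With TPM and own totals it was 1.01 and 0.88 (adjusted p = 0.00268 and 0.00138, limma), or 0.50 and 0.47 relative to all genes. The call was lost without uninjured replicate 4 or 5 or day 3 replicate 4 (adjusted p from 0.0564 to 0.0791) and with quantile normalization (0.21, adjusted p = 0.154, limma). Prkaa1 then stood at 3.44 ± 0.557 FPKM at day 7 (n = 6), 3.52 ± 0.499 at day 14 (n = 6) and 3.37 ± 0.601 at day 21 (n = 5), with log2 differences from uninjured muscle of 0.19, 0.22 and 0.17 that did not pass. With TPM and with own totals the day 7 value passed, at 0.76 and 0.61, or 0.28 and 0.25 relative to all genes.

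Prkab2 encodes the beta2 scaffold subunit of muscle. Its FPKM was 32.9, 48.7, 28.6, 42.8 and 49.4 in uninjured muscle. At day 3 it was 20.5, 13.9, 17.2, 9.08 and 9.87, with no overlap between the groups. Its log2 fold change of -1.49 (SE 0.30, adjusted p = 0.000325, limma) was the lowest of the 8 genes at that day, and it was -1.38 without day 3 replicate 5. Relative to the median of all genes it was -1.21 with TPM and -1.26 with own totals, and before that correction it was -0.70 (adjusted p = 0.0871, limma) and -0.85 (adjusted p = 0.0179, limma).

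At day 7 Prkab2 ran from 14.1 over 22.3 to 51.7 FPKM, and the highest value, again day 7 replicate 3, exceeded every uninjured sample. That day's log2 fold change was -0.78 (SE 0.29, adjusted p = 0.0424, limma) and became -1.01 without that sample. It was -0.66 without day 7 replicate 5 and -0.78 without replicate 6 (adjusted p = 0.108 and 0.0516). With TPM it was -0.08 (adjusted p = 0.845), with own totals -0.25 (adjusted p = 0.480) and with quantile normalization -0.60 (adjusted p = 0.107), and on the first 2 scales it was -0.56 and -0.61 relative to all genes. The call was lost without any 1 of uninjured replicates 2, 4 and 5 or day 7 replicates 1, 2, 4, 5 and 6 (adjusted p from 0.0516 to 0.108), and with no filter, in a fit of the 2 groups alone and with voom weights (adjusted p = 0.0910, 0.0771 and 0.0509). At day 14 the values ran from 10.1 over 23.02 to 28.8, with 5 of 6 below the uninjured range and a log2 fold change of -1.02 (SE 0.29, adjusted p = 0.0147, limma). That call was lost with TPM (-0.55, adjusted p = 0.237), own totals (-0.63, adjusted p = 0.112) and quantile normalization (-0.79, adjusted p = 0.0526), and relative to all genes the values with TPM and own totals were -0.84 and -0.87. At day 21 they were 23.4, 22.1, 24.1, 36.3 and 20.2. The groups overlapped through day 21 replicate 4 alone, and the log2 fold change was -0.66 (SE 0.30, adjusted p = 0.217, limma), which passed with quality weights (-0.70, adjusted p = 0.0309). Day 21 exceeded day 3 by 0.83 (adjusted p = 0.0446, limma), a call lost with TPM (0.23, or 0.64 relative to all genes) and own totals (0.38, or 0.68), with no filter (adjusted p = 0.0901), with the letter block (adjusted p = 0.0842) and when any 1 of 10 samples was left out (adjusted p from 0.05004 to 0.137): uninjured replicate 4, day 3 replicates 2 to 5, day 7 replicate 2 or day 21 replicates 1 to 4.

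Prkab1 encodes the beta1 scaffold subunit, found in most cells. Its FPKM was 4.04, 3.92, 4.75, 5.09 and 4.79 in uninjured muscle and 5.39, 6.02, 5.23, 6.77 and 6.90 at day 3, so the groups did not overlap. It rose by 0.35 on the log2 scale (SE 0.12, adjusted p = 0.0210, limma), and the value was 0.31 without day 3 replicate 5 (adjusted p = 0.0549). With TPM and own totals it was 1.05 and 0.91 (adjusted p = 0.000821 and 0.000356, limma), or 0.54 and 0.50 relative to all genes. The call was lost without uninjured replicate 1 or 2 or day 3 replicate 4 or 5 (adjusted p from 0.0527 to 0.0595) and with quantile normalization (0.26, adjusted p = 0.0921, limma). At day 7 and 14 it stood at 5.46 ± 0.777 and 5.53 ± 0.676 FPKM (n = 6 each), and the log2 differences of 0.22 and 0.24 did not pass, while with TPM the day 7 value of 0.84 and with own totals those of 0.68 and 0.57 did (0.36, 0.32 and 0.32 relative to all genes). The day 14 value also passed with the letter block (0.27, adjusted p = 0.0475). At day 21 Prkab1 was at 5.06, 3.99, 4.34, 3.45 and 6.11 FPKM, on both sides of the uninjured values. Its log2 difference from uninjured muscle was 0.0046 (95% interval -0.25 to 0.26), a value whose sign turned with single samples and with quantile normalization, and that from day 3 was -0.35 (adjusted p = 0.0366, limma). The latter call was lost without any 1 of day 3 replicates 2, 4 and 5 or day 21 replicates 2, 3 and 4 (adjusted p from 0.0560 to 0.116), with quantile normalization (-0.27, adjusted p = 0.106), in a fit of the 2 groups alone (adjusted p = 0.0871), with the letter block (adjusted p = 0.0593) and with no filter (adjusted p = 0.0514).

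Prkag3 encodes the gamma3 subunit of fast glycolytic fibres. Its FPKM was 27.2, 44.3, 52.9, 40.0 and 48.2 in uninjured muscle and 29.9, 19.6, 22.01, 15.8 and 40.7 at day 3. The groups overlapped, as uninjured replicates 1 and 4 lay below day 3 replicate 5, and uninjured replicate 1 also below day 3 replicate 1. Prkag3 changed by -0.75 at day 3 (SE 0.27, adjusted p = 0.0244, limma) and -0.93 without day 3 replicate 5, but with TPM it turned to 0.05 (-0.46 relative to all genes) and with own totals it was -0.11. This call was also lost without uninjured replicate 3 or 5 or day 3 replicate 2, 3 or 4 (adjusted p from 0.0512 to 0.0883), without the filter on low values (adjusted p = 0.05003) and with quantile normalization (-0.60, adjusted p = 0.105).

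At day 7 Prkag3 ran from 19.8 over 49.0 to 63.3 FPKM, around the uninjured values, with a log2 difference of 0.03 (95% interval -0.50 to 0.55), which was 0.24 without day 7 replicate 5, -0.01 without replicate 3, -0.02 without replicate 6 and -0.02 with replicate numbers as blocks. With TPM it was 0.74 and called (adjusted p = 0.0278), or 0.26 relative to all genes. The lowest day 7 value, 19.8 FPKM, was that of day 7 replicate 5. At day 14 the values ran from 63.2 over 73.5 to 88.5, all 6 above the highest uninjured sample. The log2 fold change was 0.81 (SE 0.25, adjusted p = 0.0254, limma), and relative to all genes 0.99 with TPM and 0.96 with own totals. The call was lost without uninjured replicate 1 or 4 (adjusted p = 0.0865 and 0.0505) without the filter on low values (adjusted p = 0.0550) and with replicate numbers as blocks (0.76, adjusted p = 0.0501). At day 21 Prkag3 was at 84.4, 81.9, 48.2, 72.4 and 113 FPKM. Of these, 4 lay above the uninjured range and replicate 3 within it. The log2 fold change was 0.88 (SE 0.27, adjusted p = 0.0627, limma). It passed with quality weights (0.86, adjusted p = 0.00387), own totals (1.06, adjusted p = 0.0361) and in a fit of the 2 groups alone (adjusted p = 0.0361). It also passed without day 21 replicate 3 (1.05, adjusted p = 0.0324), day 3 replicate 5 (adjusted p = 0.0493), day 7 replicate 5 (adjusted p = 0.0278) or both of the last 2 (adjusted p = 0.0153). Those 2 samples are not in this comparison, so the value stayed at 0.88 without them. Only 4 of 15 alternatives and 3 of 27 single omissions called it, with adjusted p up to 0.134 and 0.176 (limma).

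Among the injured days Prkag3 rose by 1.56 from day 3 to day 14 (SE 0.25, adjusted p = 0.000299, limma) and by 1.63 from day 3 to day 21 (SE 0.27, adjusted p = 0.000132, limma). It was the only one of the 8 genes called between day 14 and day 3, where 18.7% of all tested genes were called. Between day 21 and day 3, 3 genes were called higher (Prkaa2, Prkab2 and Prkag3) and 1 lower (Prkab1), where 25.5% of all tested genes were called. That share was made of 1351 higher and 2377 lower genes, but of 169 and 4841 with TPM, 314 and 4484 with own totals and 2108 and 2105 with quantile normalization. The median gene moved by -0.41 with TPM and -0.30 with own totals in this comparison. Prkag1, at 0.50 (adjusted p = 0.0698), passed in it with quality weights, quantile normalization, replicate numbers as blocks, a fit of the 2 groups alone and without both replicates 5 of day 3 and 7, but was -0.09 with TPM. Prkaa1, at -0.20 (adjusted p = 0.264), passed with TPM (-0.70), own totals (-0.57) and quality weights (-0.24). Between day 21 and day 7 limma called 0 of the 8 genes (2 at an unadjusted p under 0.05, 1 with voom weights) and 2.25% of all genes. Between successive days limma called none of the 8 genes, that is, 0 between day 7 and 3, 0 between day 14 and 7, and 0 between day 21 and 14. In these steps 2, 1 and 1 of them had an unadjusted p under 0.05 and voom weights called 0, and limma called 0.0478%, 0.335% and 0.0% of all tested genes. In the step from day 14 to 21, 909 genes had an unadjusted p under 0.05 and voom called 0. Prkag1 was the gene of the 8 with an unadjusted p under 0.05 in that step: its 5 day 21 samples all lay above the 6 day 14 samples (0.58, SE 0.19, adjusted p = 0.757, limma).

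Prkag1 encodes the gamma1 subunit, found in most cells. It stood at 15.4 ± 2.52 FPKM in uninjured muscle (n = 5), 12.2 ± 1.91 at day 3 (n = 5), 10.9 ± 3.62 at day 7 (n = 6), 11.6 ± 2.84 at day 14 (n = 6) and 17.6 ± 3.04 at day 21 (n = 5). None of its changes against uninjured muscle passed with the fit used here, but that of day 7 lay at the threshold, at -0.50 (SE 0.19, adjusted p = 0.0503, limma). It passed with a minimum of 1 FPKM, with no variance trend, with 0.1 or 0.5 FPKM added, with voom weights, with quality weights and with either sample block (values from -0.59 to -0.49, adjusted p from 0.00905 to 0.0498). It turned to 0.17 with TPM and 0.0037 with own totals, which is -0.31 and -0.36 relative to all genes. Its day 3 value of -0.31 (-0.38 without day 3 replicate 5) was called with quality weights (-0.38, adjusted p = 0.0304). It turned to 0.46 with TPM, where it was called (adjusted p = 0.0195), and to 0.31 with own totals, but relative to all genes these were -0.05 and -0.10. The day 14 value of -0.40 turned to 0.04 with TPM and passed with replicate numbers as blocks (-0.49, adjusted p = 0.0353). The day 7 value was -0.51, -0.47 and -0.62 without day 7 replicate 3, 5 or 6, and it also passed when any 1 of uninjured replicate 4, day 3 replicate 5, day 7 replicates 2 and 6, day 14 replicates 1 and 6 and day 21 replicate 5 was left out (adjusted p from 0.0143 to 0.0497).

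Prkag2 encodes the gamma2 subunit, known from the heart, where its mutations cause a glycogen-storage cardiomyopathy. It was a low gene here, at 2.97 ± 0.524 FPKM in uninjured muscle and 1.86 ± 0.434 at day 3 (n = 5 each), with no overlap between them. The log2 fold change was -0.48 at day 3 (adjusted p = 0.0102), -0.46 at day 7 (adjusted p = 0.0171) and -0.48 at day 14 (adjusted p = 0.0182, limma), but at day 3 it turned to 0.09 with TPM and was -0.02 with own totals, and at day 7 it turned to 0.05 with TPM and was -0.07 with own totals (adjusted p = 0.745). The day 14 call was lost with TPM (-0.12) and own totals (-0.18). Relative to all genes the values with TPM were -0.41, -0.42 and -0.42 on day 3, 7 and 14, and with own totals -0.42, -0.43 and -0.43. Without day 3 replicate 5 the day 3 value was -0.42, and that of day 7 was -0.53, -0.51 and -0.46 without day 7 replicate 3, 5 or 6, all of them called. At day 21 it stood at 2.29 ± 0.571 FPKM, with a difference of -0.28 (adjusted p = 0.296, limma). The call at day 7 was lost without uninjured replicate 5 or day 7 replicate 4 (adjusted p = 0.0584 and 0.0534) and in a fit of the 2 groups alone (adjusted p = 0.0515), and that at day 14 without uninjured replicate 5 (adjusted p = 0.0624).

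Stk11 encodes LKB1, the kinase that activates AMPK and its relatives. Its FPKM was 43.4, 34.6, 34.4, 29.1 and 46.8 in uninjured muscle and 27.4, 23.9, 27.6, 24.6 and 21.1 at day 3, with no overlap. The log2 fold change was -0.56 at day 3 (SE 0.14, adjusted p = 0.00236), -0.45 at day 7 (adjusted p = 0.0149) and -0.45 at day 14 (adjusted p = 0.0210, limma), but at day 3 it turned to 0.24 with TPM and 0.08 with own totals, at day 7 to 0.25 and 0.08, and at day 14 to 0.01 with TPM. With own totals the day 14 value was -0.06 (adjusted p = 0.760, limma). Relative to all genes the values with TPM and own totals were -0.27 and -0.32 at day 3, -0.22 and -0.28 at day 7, and -0.28 and -0.31 at day 14. Without day 3 replicate 5 the day 3 value on the deposited scale was -0.51. The day 7 value was -0.49, -0.44 and -0.51 without day 7 replicate 3, 5 or 6, each called. With quantile normalization the calls at day 7 and 14 were lost (-0.26 and -0.22, adjusted p = 0.0769 and 0.173). At day 21 Stk11 was at 29.7 ± 2.37 FPKM (n = 5), and the difference of -0.31 did not pass (adjusted p = 0.217, limma), but with quality weights it did (-0.34, adjusted p = 0.0360). The day 7 call was lost without uninjured replicate 5 (adjusted p = 0.0557) and in a fit of the 2 groups alone (adjusted p = 0.0666). The day 14 call was lost without uninjured replicate 1 or 5 or day 14 replicate 1 (adjusted p from 0.0501 to 0.0761).

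The ratio of isoforms within a sample asks which partner dominates and is free of the scale between samples. It was tested with two-sided exact permutation tests, adjusted over 16 tests, for which the smallest p is 0.00794 with 5 against 5 samples and 0.00433 with 5 against 6. In uninjured muscle there was 6.24 times as much Prkaa2 as Prkaa1 (geometric mean, range 4.59 to 8.48). At day 3 the ratio was 1.72 (range 0.814 to 2.52), below the uninjured range in 5 of 5 samples, and in day 3 replicate 4 Prkaa1 exceeded Prkaa2. The log2 difference was -1.86 (exact p = 0.00794, adjusted p = 0.0254). At day 7 the ratio was 2.48 (-1.33, exact p = 0.0173, adjusted p = 0.0462), at day 14 it was 2.37 (-1.39, exact p = 0.00433, adjusted p = 0.0231) and at day 21 it was 3.62 (-0.78, exact p = 0.0238, adjusted p = 0.0476). Thus the alpha ratio stayed under its uninjured level at each of the 4 days, in 4 of 5 samples below the whole uninjured range at day 21. In terms of the summed alpha FPKM, Prkaa2 made up 85.9% ± 3.36 in uninjured muscle, 62.9% ± 10.5 at day 3 and 78.1% ± 4.86 at day 21 (SD, n = 5 each).

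In the beta pair, Prkab2 exceeded Prkab1 by a factor of 8.79 in uninjured muscle and 2.23 at day 3, again below the uninjured range in 5 of 5 samples (log2 difference -1.98, exact p = 0.00794, adjusted p = 0.0254). The ratio was 4.16 at day 7 (-1.08, exact p = 0.0303, adjusted p = 0.0539), where day 7 replicate 3 stood at 11.4. It was 3.45 at day 14, with 6 of 6 samples below the uninjured range (-1.35, exact p = 0.00433, adjusted p = 0.0231), and 5.47 at day 21 (-0.68, exact p = 0.0714, adjusted p = 0.104). Without day 7 replicate 3 the day 7 difference was -1.37 and passed (adjusted p = 0.0181, exact), and without day 21 replicate 4 the day 21 difference was -0.92 and passed (adjusted p = 0.0346, exact). Prkab2 made up 89.6% ± 2.56 of the summed beta FPKM in uninjured muscle and 68.4% ± 10.02 at day 3 (n = 5 each).

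The gamma pair of Prkag3 and Prkag1 took another course. Prkag3 exceeded Prkag1 by a factor of 2.72 in uninjured muscle (range 1.59 to 3.42) and 2.01 at day 3 (-0.44, exact p = 0.143, adjusted p = 0.190). At day 7 the factor was 4.06 with a wide spread, from 2.16 to 10.6 (0.58, exact p = 0.199, adjusted p = 0.228). At day 14 it was 6.52, with 6 of 6 samples above the uninjured range (1.26, exact p = 0.00433, adjusted p = 0.0231). At day 21 it was 4.42, with 4 of 5 above (0.70, exact p = 0.0238, adjusted p = 0.0476). Prkag3 made up 69.3% ± 6.61 of the summed gamma FPKM in uninjured muscle, 63.3% ± 6.77 at day 3 and 84.6% ± 2.36 at day 14 (n = 5, 5 and 6). The ratio of Prkag2 to Prkag1 was 0.194 in uninjured muscle, with log2 differences of -0.36, -0.12, -0.26 and -0.59 on day 3, 7, 14 and 21 that did not pass (exact permutation test, adjusted p from 0.102 to 0.671).

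Omitting a sample lowers what these exact tests can reach: with 4 against 5 samples the smallest p is 0.0159. Of the 8 ratio calls, those of Prkaa2 to Prkaa1 at day 7 and day 21 and of Prkag3 to Prkag1 at day 21 were lost in 10 of 11, 9 of 10 and 9 of 10 omissions. Among single omissions, each of the other 5 was lost only without uninjured replicate 2, 3, 4 or 5, at an adjusted p of 0.0508 (exact). The alpha and beta calls at day 3 were also lost without both day 3 replicate 5 and day 7 replicate 5 (adjusted p = 0.0508, exact). On the other side, the fall of Prkag3 to Prkag1 at day 3 passed without uninjured replicate 1 (-0.63, adjusted p = 0.0423, exact), and that of Prkag2 to Prkag1 at day 21 without day 21 replicate 1 (-0.77, adjusted p = 0.0396, exact).

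**Figure D3:**
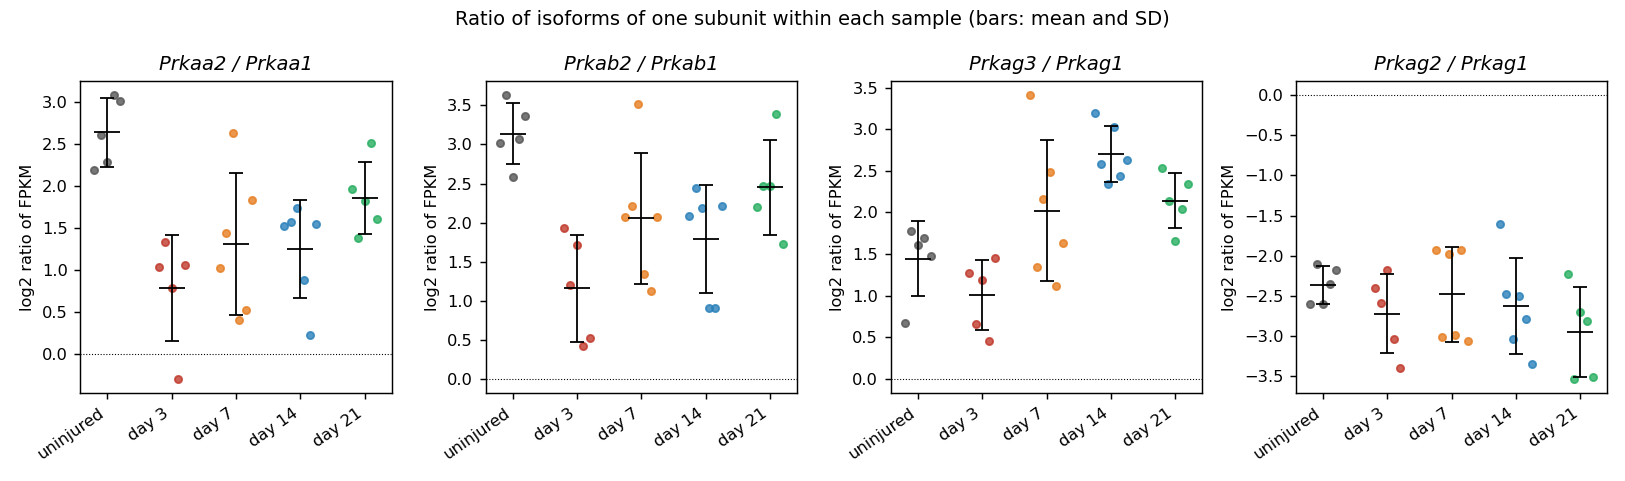
Log2 ratio of the FPKM of 2 isoforms of a subunit (y axis; 0, where shown, is equal FPKM) in each sample, by group, with bars for the mean and SD. All day 3 and day 14 points of Prkaa2/Prkaa1 and Prkab2/Prkab1 lie below the uninjured points, and all day 14 points of Prkag3/Prkag1 lie above them.

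In summed FPKM, the 2 alpha genes held 20.9 ± 1.97 in uninjured muscle, 11.1 ± 2.04 at day 3 and 15.8 ± 3.23 at day 21 (n = 5 each). The 2 beta genes held 45.0 ± 9.36, 20.2 ± 4.13 and 29.8 ± 5.67 in the same groups. The 3 gamma genes held 60.9 ± 10.6, 39.6 ± 11.3 and 99.9 ± 25.5, with 87.5 ± 10.4 at day 14 (n = 6). The transcripts of the 3 subunits thus did not keep one proportion over the time course.

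The make-up of the tissue moved at the same time. Of 8 myofibre markers, 7 were called lower at day 3, 4 at day 7 and 1 at day 14 by limma, and at day 21 limma and voom called 0, with 0 at an unadjusted p under 0.05. Their summed FPKM, most of all Acta1, averaged 91378 in uninjured muscle and 41402, 57432, 64736 and 85012 at day 3, 7, 14 and 21. Of 6 myeloid markers, 6 were called higher at day 3, 5 at day 7 and 2 at day 14, whereas on day 21 limma and voom called 0, with 0 at an unadjusted p under 0.05. Their summed FPKM, led by Lyz2, went from 20.2 to 1357, 511, 77.5 and 43.7. Of 4 fibroblast markers, led by Col1a1, 3 were higher at day 3, 7 and 14 and 2 at day 21 (summed FPKM 74.8, then 512, 559, 331 and 157). Of 4 satellite cell and myoblast markers, led by Myog, 3 were higher at day 3 and 2 at each later day (22.2, then 231, 110, 137 and 87.2). Both cycling cell markers, Mki67 and Top2a, were higher at day 3 and 7 and 1 of them at day 14. Of 3 endothelial markers, Kdr was lower at each day, and both adipocyte markers were called higher at day 7, though 0 of them by voom, at a summed FPKM of 11.6 with Adipoq or Plin1 listed at 0 in some samples. Limma and voom called 0 of the 2 Schwann cell and 2 red blood cell markers at any day, with 1 Schwann cell marker at an unadjusted p under 0.05 at day 3. No marker of the other lists was at 0 in any sample. The part that these shifts have in the changes of the 8 genes was not tested, beyond the following descriptions.

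Set against the mean log2 level of the 8 myofibre markers, which changed by -1.33, -0.87, -0.52 and -0.22 on day 3, 7, 14 and 21, Prkaa2 and Prkab2 kept near the markers at first. The difference between the change of Prkaa2 and that of the markers was 0.07, -0.12, -0.49 and -0.31 on these days. For Prkab2 it was -0.16, 0.09, -0.50 and -0.45. At day 14, 5 of 6 samples lay below all uninjured ones in this difference for Prkaa2 and 4 of 6 for Prkab2, where at day 3 it was 1 of 5 for each, with 3 of 5 samples above all uninjured ones for Prkaa2. Prkag3 stood above the markers by 0.58, 0.89, 1.33 and 1.09, exceeding all uninjured samples in 4 of 5, 5 of 6, 6 of 6 and 5 of 5 samples. For Prkag1 the difference was 1.01, 0.36, 0.12 and 0.40 on these days, and for Prkag2 0.85, 0.41, 0.04 and -0.06. At day 3 both thus stood further above the markers than Prkag3. Prkaa1 and Prkab1 stood above the markers by 1.69 and 1.68 at day 3. For Stk11 the difference was 0.76 at day 3 and -0.10 at day 21. These differences carry no test, were chosen after the values of the genes were seen, and do not depend on the scale between samples apart from the added 1 FPKM.

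**Figure D4:**
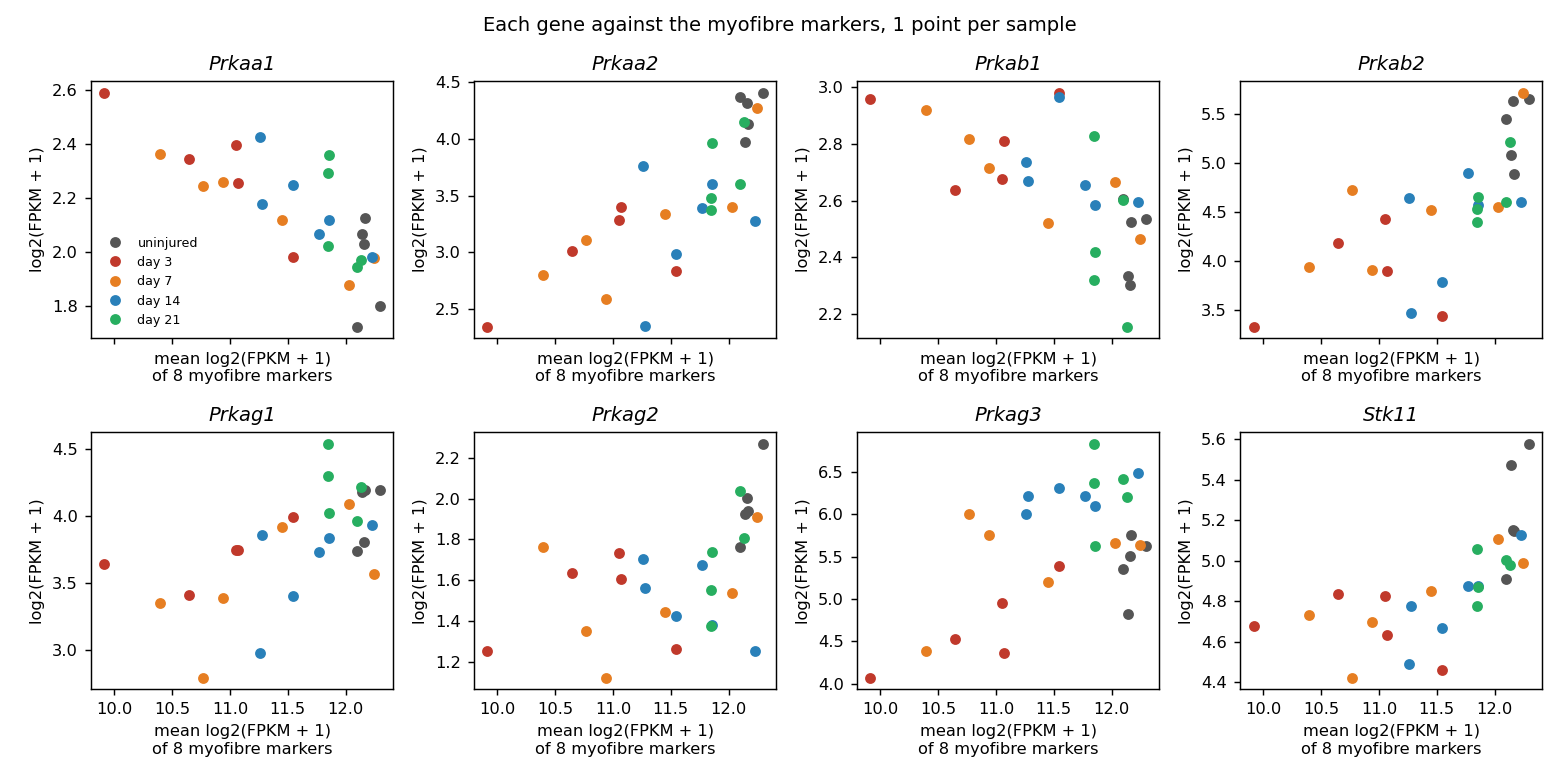
Log2(FPKM + 1) of each gene (y axis) against the mean log2(FPKM + 1) of 8 myofibre markers (x axis), with 1 point per sample coloured by group. Prkaa2 and Prkab2 are low in the samples with the lowest markers, but also in day 14 replicate 6 and day 7 replicate 6 (Prkaa2 at 8.69 and 9.56 FPKM, Prkab2 at 23.3 and 22.5). Their marker means of 12.2 and 12.03 lie within and just below the uninjured range of 12.10 to 12.29. Day 21 replicate 1, at 12.10, had 11.2 and 23.4 FPKM of Prkaa2 and Prkab2. Within that range, day 7 replicate 3 (12.24) and day 21 replicate 4 (12.13) were higher, with Prkaa2 at 18.3 and 16.8 FPKM and Prkab2 at 51.7 and 36.3. The 6 day 14 points of Prkag3 lie above all uninjured points, as do 4 of the 5 day 21 points.

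The genes whose course over the 27 samples was nearest to that of each subunit were found by the root mean square (RMS) difference of log2(FPKM + 1), each taken from its own uninjured mean. For Prkaa2 these were Msrb3, Pkia and Hipk3, at RMS differences of 0.14, 0.15 and 0.17, where Prkaa2 itself varied by an RMS of 0.97 and the median gene differed from it by 1.05. For Prkab2 they were Rragd, Jph1 and Cmya5, at 0.21, 0.22 and 0.23 beside its own 1.03. For Prkag3 they were Trim7, Tef and Lrrfip2, at 0.30, 0.35 and 0.39 beside its own 0.74, a looser match. For Stk11 they were Eri3, Rabl6 and Zswim9, at 0.13, 0.13 and 0.15 beside its own 0.45. The nearest genes were Dock10, Hnrnpk and Pcdh7 for Prkaa1, Zfp207, Ipo9 and Iqce for Prkab1, Dohh, Bnip1 and Mrpl33 for Prkag1, and Tln2, Ado and Bcl2l2 for Prkag2.

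Beyond the kinase itself, 62 other genes of the pathway were listed, of which 59 were tested. At day 3, 11 were called higher and 31 lower, at day 7 it was 9 and 26, at day 14 6 and 20, and at day 21 2 and 6 (limma). Of all tested genes 23.4% were called higher and 19.8% lower at day 3, and the shares were 15% and 14.4%, 9.02% and 11.3%, and 1.74% and 1.69% on the later days, against which these counts and those of each list are to be read. Without day 3 replicate 5 and day 7 replicate 5 the counts were 11 and 33 at day 3 and 7 and 24 at day 7. With TPM the day 3 count became 18 higher and 9 lower, on a scale that called 6868 of the 14630 tested genes higher and 322 lower, and with own totals 16 and 14 (6534 and 618 of all tested genes), and with quantile normalization 10 and 35 (2774 and 3734). On day 7, 14 and 21 the pathway counts were 17 and 5, 7 and 2, and 0 and 0 with TPM, 16 and 10, 9 and 5, and 0 and 1 with own totals, and 5 and 23, 4 and 13, and 1 and 1 with quantile normalization. The larger number of lower calls at day 3, 7 and 14 thus turned on the first 2 of these scales, and nearly all calls at day 21 were lost on each.

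LKB1 works in a complex with a STRAD pseudokinase and the scaffold MO25. Of 7 genes of this complex and of other upstream kinases, 2 were higher and 3 lower at day 3 (median log2 fold change -0.18, all genes 0.01). With TPM, where the median of all genes was 0.51, 4 were higher and none lower. Strada, a pseudokinase partner, rose from 2.18 ± 0.182 to 3.56 ± 0.506 FPKM (0.52, adjusted p = 0.00138, limma) and stood at 0.54 at day 21 (adjusted p = 0.0150), a call kept with quantile normalization (0.48) and lost with TPM (0.64, adjusted p = 0.219) and own totals (0.65, adjusted p = 0.0621). Its relative Stradb fell from 18.1 ± 1.40 to 9.34 ± 2.18 FPKM (-0.91, adjusted p = 0.00133, limma; -0.15 with TPM), and Cab39, which encodes MO25 alpha, from 21.6 ± 1.94 to 12.2 ± 2.15 (-0.78, adjusted p = 0.00125; -0.01 with TPM). Camkk2, the calcium-dependent AMPK kinase, rose from 0.289 ± 0.0928 to 1.14 ± 0.185 FPKM (0.73 at an FPKM near the added 1, and 1.06 with TPM).

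Of 12 AMPK-related kinases, the other substrates of LKB1, 10 were tested (Sik2 and Brsk2 were too low), with 3 higher and 1 lower at day 3, or 4 higher and none lower with TPM or own totals, where 6868 and 6534 of the 14630 tested genes were called higher. Sik1, a salt-inducible kinase, rose by 1.03 at day 3 (adjusted p = 0.0157, limma) and by 1.68 at day 14 (adjusted p = 0.00141). Nuak2 rose by 0.81 and Mark4 by 0.50 at day 3. Mark3 fell by 0.46 on the log2 scale at day 3, a value that turned to 0.23 with TPM and 0.09 with own totals.

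Of 10 AMPK substrates in lipid, glycogen and glucose metabolism, 1 was higher and 5 lower at day 3, with 1 lower on TPM and 2 on own totals. Pfkfb3, an enzyme that sets the level of fructose 2,6-bisphosphate and with it glycolysis, stood at 26.8 ± 7.83 FPKM in uninjured muscle, 5.30 ± 3.11 at day 3 and 7.93 ± 2.56 at day 21 (n = 5 each). Its log2 fold change was -2.23, -2.70, -2.22 and -1.65 over the 4 days (adjusted p = 0.00468 at day 21, limma, and 0.0550 with TPM). Acacb, the muscle acetyl-CoA carboxylase whose product holds back fatty acid oxidation, fell from 24.3 ± 3.68 to 9.50 ± 2.70 FPKM at day 3 (-1.30, limma), and Gys1, muscle glycogen synthase, from 120 ± 19.2 to 59.9 ± 19.9 (-1.04, adjusted p = 0.000784, limma). Both kept a lower value with TPM, at -0.53 and -0.22, but without a call there. Pfkfb2, a relative of Pfkfb3, fell by 0.55 at day 3.

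Of 10 substrates in growth control, autophagy, mitochondria and transcription, 7 were called lower at day 3 by limma, where with TPM 1 was lower and 3 were higher. Ulk1, the kinase that starts autophagy, fell from 11.3 ± 1.21 to 5.06 ± 0.448 FPKM (-1.02, limma) and stood at -0.55 at day 21 (adjusted p = 0.0344), a call lost with TPM (-0.37), own totals (-0.37), quantile normalization (-0.49, adjusted p = 0.117) and voom weights. Ppargc1a, a coactivator of mitochondrial genes, fell from 4.75 ± 0.927 to 1.503 ± 0.627 FPKM (-1.22, limma; -0.66 with TPM, adjusted p = 0.0204). Tsc2, which restrains mTORC1, and Fnip1, a folliculin partner, fell by 0.53 and 0.59 at day 3 but stood at 0.20 and 0.02 with TPM. Tsc2 returned to 8.92 ± 0.658 FPKM at day 21, beside 8.91 ± 0.765 in uninjured muscle.

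Of 8 muscle fuel genes downstream of the pathway, 7 were tested, as Cpt1b did not reach 0.5 FPKM in at least 5 samples. Why its FPKM was low in this table was not tested, and overlapping genes were looked up only for the AMPK subunit genes and Stk11. Of the tested genes, 7 were lower at day 3 and at day 7, 5 at day 14 and 4 at day 21 (limma). The median log2 fold change at day 3 was -1.47, beside 0.01 for all tested genes, and with TPM -0.68 beside 0.51, with 4 called lower. Mlycd, malonyl-CoA decarboxylase, fell from 42.5 ± 4.45 to 14.6 ± 0.989 FPKM (-1.47, limma) and was at 26.8 ± 3.19 at day 21 (-0.65, adjusted p = 0.0270). That call was lost with TPM (-0.45), own totals (-0.46) and quantile normalization (-0.50, adjusted p = 0.0600). Of the 4 calls of the list at day 21, none was left on these 3 scales, where the medians were -0.56, -0.56 and -0.60, and voom weights made 3. Ucp3, a mitochondrial uncoupling protein of muscle, fell from 36.6 ± 4.32 to 10.99 ± 3.35 (-1.69, limma), and Pdk4, a kinase that inhibits pyruvate dehydrogenase, by 1.62 on the log2 scale. Lpl, lipoprotein lipase, fell by 1.27 at day 3 and stood at -0.80 at day 21 (adjusted p = 0.0900).

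Of 10 enzymes of adenine nucleotides and phosphocreatine, which set the AMP and ATP that AMPK reads, 2 were higher and 7 lower at day 3, 3 and 3 with TPM and 3 and 5 with own totals. Ampd1, the AMP deaminase of muscle fibres, fell from 264 ± 53.9 to 78.0 ± 21.7 FPKM (-1.78, adjusted p = 0.000568, limma) and stayed lower with TPM (-0.96, adjusted p = 0.00622). Ak1, the adenylate kinase of muscle, fell from 752 ± 61.7 to 308 ± 109 FPKM (-1.38, limma) and was at 668 ± 127 at day 21. Adk and Adsl, enzymes of adenosine and of AMP synthesis, fell by 1.04 and 0.98. This list shares Ckm with the myofibre markers. At day 21 Ampd3, another AMP deaminase, was the only gene of the list called higher (1.16, adjusted p = 0.0277, limma), a gene named after its value was seen, and with TPM, own totals or voom weights no gene of the list was called at that day.

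Of 5 sestrins and folliculin partners, 3 were higher and 1 lower at day 3, and 3 were higher with TPM as well. Sesn1 rose from 3.91 ± 0.431 to 7.25 ± 1.94 FPKM (0.72, adjusted p = 0.00101, limma), Sesn2 from 0.652 ± 0.327 to 1.82 ± 0.481 (0.77) and Fnip2 from 0.478 ± 0.175 to 1.60 ± 0.427 (0.80). Flcn, folliculin, fell by 0.50, a value that turned to 0.25 with TPM. At day 21 limma and voom called 0 of the 5, with 1 at an unadjusted p under 0.05.

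**Figure D5:**
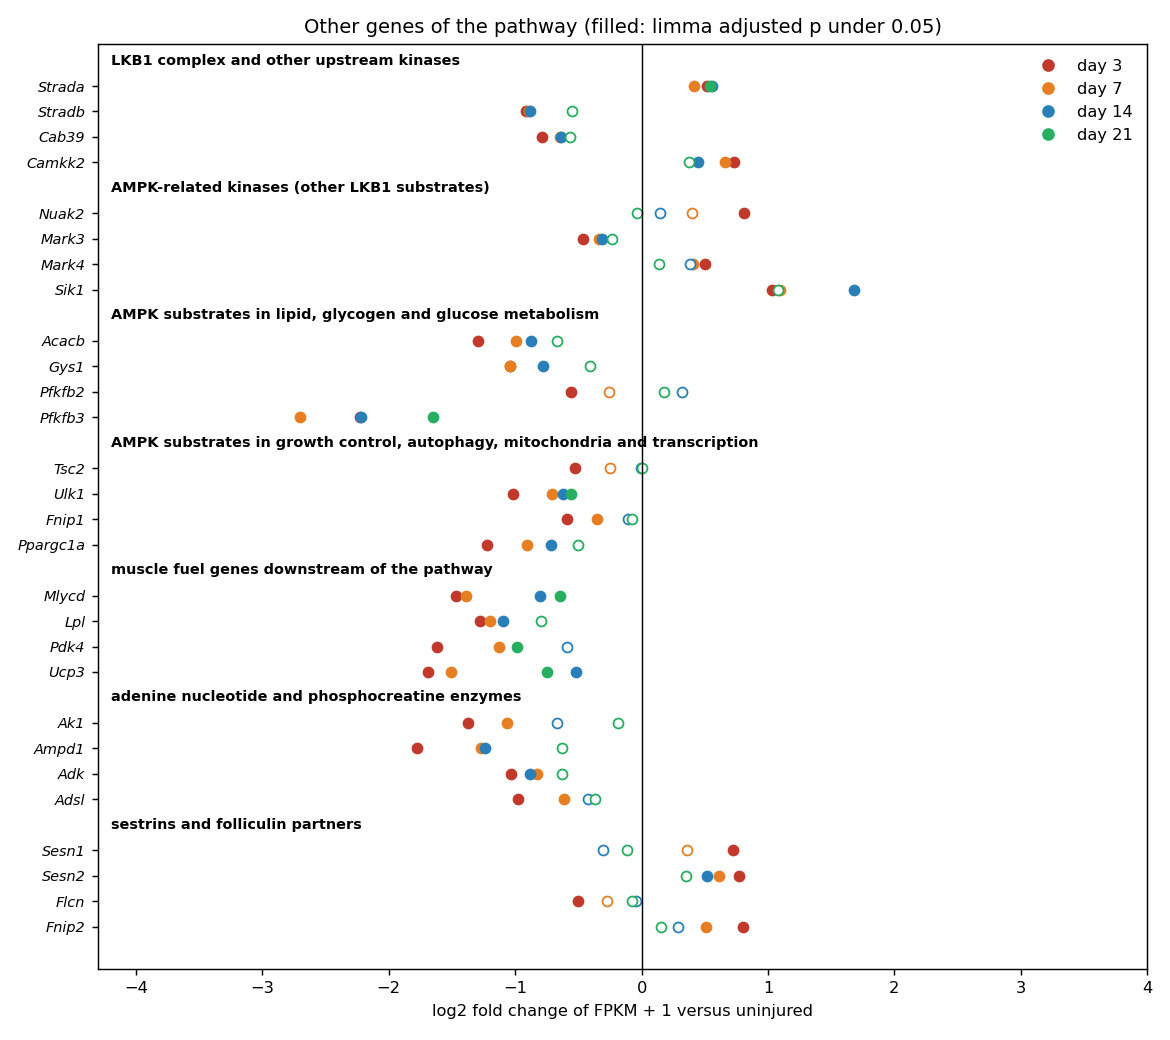
Log2 fold change of FPKM + 1 against uninjured muscle (x axis) of the named pathway genes at the 4 days, by list, on the deposited scale, on which the day 3 values of Mark3, Tsc2, Fnip1 and Flcn lie left of 0 and with TPM right of it. Filled points have a limma adjusted p under 0.05, and the points of the muscle fuel genes lie left of 0 at every day while those of Strada, Camkk2, Sik1 and Sesn2 lie right of it.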

How the data were processed

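RNA was extracted with Trizol, polyadenylated RNA was captured with poly-T beads, and non-directional libraries were sequenced on an Illumina Novaseq. Per the labels and the submitters' processing notes, HISAT2 2.0.5 and featureCounts 1.5.0-p3 were used, and the authors deposited FPKM per gene for each sample without pooling. How those FPKM were scaled is not given in the sources used here. The median-ratio factors of the deposited FPKM over genes present in all samples were 1 in each sample. Dividing by what 1 read is worth gave whole reads for 100% of the values (tolerance 0.01 read), 14376395 to 24436763 per sample. No molecular identifiers were used, so reads are not independent molecules.

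Genes with at least 0.5 FPKM in at least 5 samples were tested on log2(FPKM + 1) with limma 3.58.1 (R 4.3.3), with a variance trend, all 27 samples in 1 fit and Benjamini-Hochberg adjustment within each comparison. Isoform ratios used log2((FPKM + 0.01)/(FPKM + 0.01)) and exact permutation tests (SciPy 1.17.1). In simulated data with 200 changed genes of 14630, the day 3 comparison recovered 82% of genes changed by 1 and 98% of those changed by 2 on the log2 scale. There were 5 false calls among the unchanged genes. The real day 3 comparison called 6316 genes, and changes below 1 were not simulated, so these shares do not carry over to the smaller changes described here. The text names the 8 genes, up to 4 tested genes of each pathway list with the smallest adjusted p at day 3, and the 3 genes most like each of the 8 by RMS difference. The 8 genes, the lists and the tests were chosen with earlier results of these data known. Alternatives were another pseudocount, filter, scaling or spread, sample blocks, quality weights, voom weights on the recovered reads, and leaving out samples.

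Gene models were checked against GENCODE M21, which held 54409 of the 54532 genes, 98.3% at the same coordinates. Promoter sequences came from RefSeq (GRCm38.p6), and all 8 genes matched.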

Additional observations from a re-analysis of the deposited data

Results flagged for a closer look

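In groups of 5 or 6 samples, 60 sets of values were examined for a sample far from the others, and 6 held one, where chance gives about 1 in 20. Day 7 replicate 3 stood apart in Prkaa2 at 18.3 FPKM (next value 9.56), in Prkab2 at 51.7 FPKM (next 25.4) and in the ratio of Prkab2 to Prkab1 at 11.4 (next 4.64), and it also had the highest sum of myofibre markers of its day, at 99575 FPKM. Day 21 replicate 4 stood apart in Prkab2 at 36.3 FPKM (next 24.1). Day 14 replicate 4 stood apart in Prkab1 at 6.82 FPKM (next 5.66). Day 14 replicate 1 stood apart in the ratio of Prkag2 to Prkag1 at 0.329 (next 0.180).

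The effects at day 21 and day 3 against uninjured muscle differed by the test of the difference itself (limma, adjusted p under 0.05) for 4 of the 8 genes, where 25.5% of all tested genes were called. Without day 3 replicate 5 and day 7 replicate 5 it was 2 of the 8, and with no filter or with the letter of the descriptions as a block it was 1, Prkag3. The day 21 value exceeded the day 3 value by 0.74 for Prkaa2, 0.83 for Prkab2 and 1.63 for Prkag3 on the log2 scale, and for Prkab1 the difference was -0.35. With FPKM rescaled to a common sum the differences for Prkaa2 and Prkab2 were 0.18 and 0.23 and did not pass, but the median gene moved by -0.41 there, and relative to it they were 0.59 and 0.64.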

How the results depend on the processing

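Besides leaving out each of the 27 samples, 15 alternatives were run. The rescaling of FPKM to a common sum (TPM) called 6513 genes at day 7, 1785 at day 14 and 49 at day 21 (main counts 4296, 2969 and 502), and 3 of the 8 genes at day 3 and 1 at day 14, all of them higher. Own totals called 133 genes at day 21, and 4, 2, 2 and 1 of the 8 genes at day 3, 7, 14 and 21, of which 2 at day 3 were lower and the others higher. Quantile normalization called 294 genes at day 21 and 4, 2 and 3 of the 8 at day 3, 7 and 14. At day 21, 247 genes were called with no filter, 282 with voom weights, 2471 with sample quality weights (and 3 of the 8 genes, Prkab2, Prkag3 and Stk11) and 1477 in a fit of the 2 groups alone (and 1 of the 8, with 1 at day 7). Between day 21 and 3, quality weights called 6472 genes, and 1 of the 8 was called with no filter. Without both day 3 replicate 5 and day 7 replicate 5, 1 of the 8 was called at day 21 and 2 between day 21 and 3, and the ratio differences were -1.93, -1.17 and -0.78 for Prkaa2 to Prkaa1 at day 3, 7 and 21, -1.82 for Prkab2 to Prkab1 at day 3 and 0.70 for Prkag3 to Prkag1 at day 21, with adjusted p from 0.0508 to 0.0635 (exact permutation). At day 3 this left 4 against 5 samples, for which the smallest p is 0.0159. The samples at day 21 were the same as before, so only the adjustment over the other ratios moved there. With 1 FPKM added, the ratio of Prkag2 to Prkag1 at day 7 turned to 0.0469.

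The replicate numbers of the titles were not taken as pairs, since no label gives them a meaning. Of the 51 pairs with the same number, 15 had a correlation of deviations over 0.1 (mean 0.0217, other pairs -0.0033). The share of other pairs over 0.1 was not counted, so this count cannot decide the question. As a hint from the data only, 11 of 27 samples correlated best with one of their own number, where equal odds for each candidate give 4.73. With the number as a block, 795 genes were called at day 21, and with the letter of the descriptions as a block 1233, with 1 of the 8 genes between day 21 and 3. Under the number block Prkag3 turned to -0.0197 at day 7 and was 0.76 at day 14 (adjusted p = 0.0501, limma).

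Values that turned their sign were those of Prkag1 with TPM (0.46, 0.17 and 0.0439 at day 3, 7 and 14 and -0.0929 between day 21 and 3) and own totals (0.31 and 0.0037 at day 3 and 7), Prkag2 with TPM (0.0930, 0.0536 and -0.22 at day 3, day 7 and between day 21 and 3) and own totals (-0.11 between day 21 and 3), Prkag3 with TPM at day 3 (0.0477), and Stk11 with TPM (0.24, 0.25 and 0.0135 at day 3, 7 and 14 and -0.36 between day 21 and 3) and own totals (0.0814 and 0.0827 at day 3 and 7 and -0.21 between day 21 and 3). Prkab1 at day 21 turned to -0.0089 with quantile normalization and -0.0016 with voom.

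Leaving out 1 sample at a time, 4 to 7 of the 8 genes were called at day 3, and on day 7, 14 and 21 it was 1 to 5, 3 to 5 and 0 to 1, with 1 to 5 between day 21 and 3. Prkag3 at day 7 ranged from -0.12 to 0.24 and Prkab1 at day 21 from -0.0867 to 0.0820. The ratio difference of Prkaa2 to Prkaa1 ranged from -1.996 to -1.59 on day 3, -1.59 to -1.15 on day 7, -1.51 to -1.19 on day 14 and -0.95 to -0.66 on day 21. That of Prkab2 to Prkab1 ranged from -2.17 to -1.79, -1.37 to -0.89, -1.48 to -1.17 and -0.92 to -0.50 on the same days, that of Prkag3 to Prkag1 from -0.63 to -0.30 on day 3, 1.07 to 1.34 on day 14 and 0.50 to 0.82 on day 21, and that of Prkag2 to Prkag1 from -0.77 to -0.44 on day 21. All genes called ranged from 1895 (without day 14 replicate 5) to 3358 at day 14, from 190 (without day 21 replicate 2) to 707 at day 21 and from 2316 (without day 3 replicate 4) to 4076 between day 21 and 3. The day 21 count was 265 without day 21 replicate 1, and 304, 301, 221 and 228 without uninjured replicates 1, 2, 4 and 5. The cause of these shifts was not tested.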
